A study of Mus musculus with 9 samples.

Results

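The comparison described here is between homozygous (KI/KI) and heterozygous (KI/+) *Kcnd3* F227del mice, that is, between 2 mutant alleles and 1. It compares 6 of the 9 libraries of the series, 3 per genotype, chosen by the genotype that the labels give. The other 3 libraries are from wild-type (WT) mice. They were part of the main fit, where they add to the estimate of the spread between libraries, so the calls rest on them too. Their levels are given beside the result where the position of KI/+ matters. All mice were female and 1.5 months old. The mutant mice carried a knock-in allele, made in B6N embryonic stem cells and backcrossed to C57BL/6J, that removes 1 phenylalanine from the Kv4.3 channel in every cell that expresses the gene. The tissue was cerebellum enriched for Purkinje cells by laser microdissection, and total RNA was sequenced from poly(A)-selected stranded libraries. Each library is titled as a separate biological replicate. The library names of KI/+ replicates 2 and 3 share the code before the genotype after different prefixes, as do KI/+ replicate 1 and KI/KI replicate 3, and what the code stands for is not given in the sources used here.

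*Kcnd3* encodes Kv4.3, a pore-forming subunit of voltage-gated potassium channels of the Shal type, which carry A-type currents. These channels open briefly below the firing threshold, assemble with KChIP and DPP-like auxiliary subunits, and help to set the timing of action potentials. Purkinje cells are the GABAergic output neurons of the cerebellar cortex, and dominant *KCND3* mutations cause spinocerebellar ataxia in people. The comparison asks what a second F227del allele adds to the transcripts of this tissue when 1 mutant allele is already present.

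Of 56953 gene identifiers in the count table, 10842 passed the filter on low counts and were tested, and they held 99.0% of all counts. Library totals were 1915339 to 3035070 counts in KI/+ and 2606664 to 4032357 in KI/KI. KI/+ replicate 3 had the fewest counts, 1915339. At 3 counts, taken here as the floor of detection, a library reached 0.744 to 1.57 in units of CPM (counts per 1000000 counts of the library).

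The gene names need a caution before any value is read. Names were looked up in the GENCODE vM21 annotation of GRCm38, the build that the labels give (also called mm10). Of 52029 identifiers found there, 51992 (99.93%) carried a higher version number in the count table, and the 35 with the same number were all on the mitochondrial genome. Some genes used by nearly every cell were almost without counts. *Actb*, which encodes beta-actin, had 37 counts over the 9 libraries. Of 515 genes of 13 widely used families, such as ribosomal proteins, 197 averaged at least 10 counts and 93 had no count in any library. The 13 protein genes of the mitochondrial genome were all listed at 0. Each name below is therefore the name of the deposited identifier. Whether reads and gene models were on the same assembly is not given in the sources used here and was not tested. To show where this matters, the text gives for named genes how many of the 10 nearest such family genes averaged at least 10 counts; the median over the genes tested was 4 and the highest value was 8.

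Markers of Purkinje cells reflected the same limit. *Car8* and *Calb1*, 2 Purkinje cell markers that handle calcium signals, were counted 232481 and 149596 times over the 9 libraries, and each had 8 counted neighbours. *Itpr1*, the inositol trisphosphate receptor of these cells, was counted 69619 times. In contrast, *Pcp2* had 12 counts, *Dner* 14 and *Gad1* 1. Only 4 of 15 Purkinje cell markers passed the filter, so the counts describe the Purkinje cell content by these few. The tissue label itself comes from the microdissection, where the study reported mainly Purkinje cell bodies by H&E staining.

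The libraries did not group by genotype alone. A chi-square statistic per degree of freedom, which is near 1 when 2 libraries differ only by sampling, was 1.47 to 2.64 among the replicate 1 libraries of WT, KI/+ and KI/KI. Between a replicate 1 library and replicate 2 or 3 of its own genotype it was 8.07 to 11.5. The lowest value of all was 1.29, between WT replicates 2 and 3, and no pair was close enough to be 1 library under 2 labels. *Filip1l* shows the split: its level was 37200 CPM in KI/+ replicate 1 and 31800 in KI/KI replicate 1, and between 5670 and 9940 in replicates 2 and 3 of those genotypes. The labels name no shared batch for the replicate 1 libraries. The main fit had no term for the replicate number. Counts of changed genes are therefore also given with such a term and for replicates 2 and 3 alone.

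**Figure D1:**
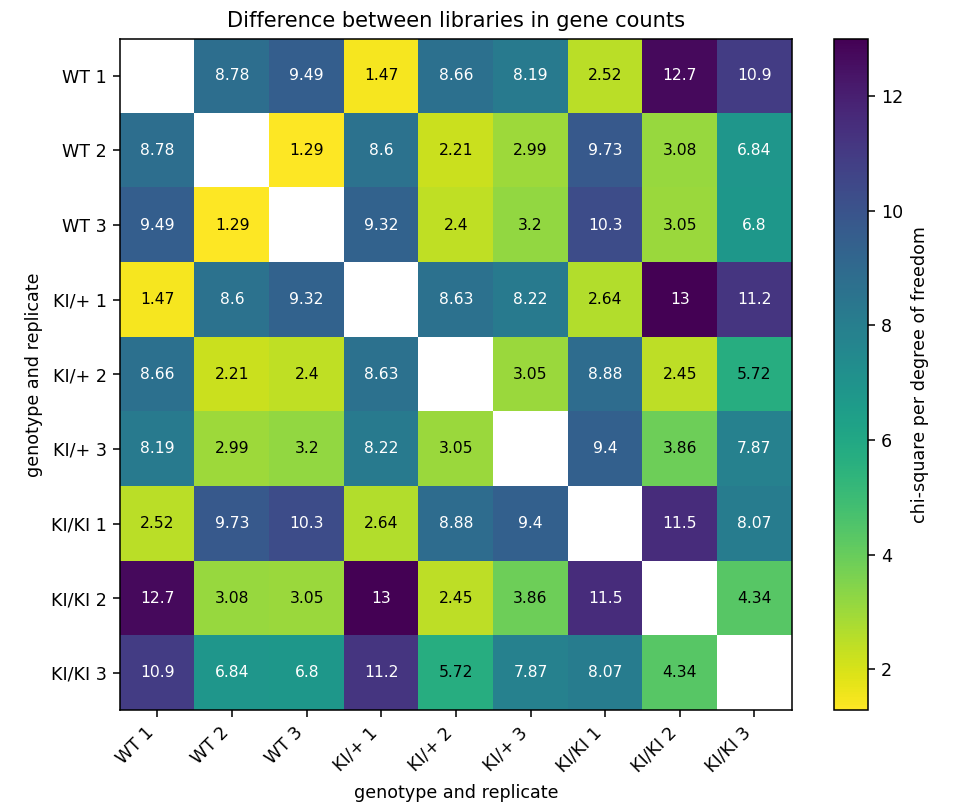
Chi-square per degree of freedom over gene counts for each pair of the 9 libraries, with genotype and replicate on both axes and darker colours for larger differences. The replicate 1 libraries of the 3 genotypes differ from each other by 1.47 to 2.64, less than from any other library.

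*Kcnd3* itself was too thinly counted to tell the genotypes apart. It had 104 counts in all 9 libraries. Its level was 4.14, 4.81 and 3.16 CPM in the KI/+ libraries and 4.87, 2.55 and 3.03 CPM in the KI/KI libraries, and the groups overlapped. The log2 fold change of KI/KI over KI/+ was -0.22 with a standard error of 0.45 (adjusted p = 0.925), and the gene had 2 counted neighbours. A count per gene cannot separate mutant from normal transcripts, so it does not check the labels.

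With all libraries in the fit, the second allele came with lower counts more often than with higher ones. The study's criteria were a fold change over 1.3 with an FDR (false discovery rate) under 0.2. With them, KI/KI had 33 down-regulated and 9 up-regulated genes relative to KI/+ by edgeR's quasi-likelihood test, or 0.304% and 0.083% of the genes tested. The study itself, using DESeq2 with these limits, reported fewer down-regulated genes for this comparison. These differentially expressed genes (DEGs) had log2 fold changes of -3.74 to -0.40 (median -0.84) when down and 0.41 to 1.71 (median 0.48) when up. At an unadjusted p under 0.05, 539 genes were lower (4.97%) and 463 higher (4.27%). When KI/+ replicate 2 was left out, 447 were lower and 455 higher at that limit. The median log2 fold change over all genes tested was 0.00. All 9 up-regulated genes and 27 of the 33 down-regulated genes had KI/KI libraries that did not overlap the KI/+ libraries, against 7.28% (below) and 7.17% (above) of all genes tested. These libraries also chose the DEGs, so the choice favours a lack of overlap, which adds no evidence for the calls. With 3 libraries against 3, an exact two-sided permutation test of a single gene cannot go below p = 0.1, so the calls rest on a spread shared across genes. At an FDR under 0.05, 10 genes were down-regulated and none up-regulated. With a term for the replicate number, the study's criteria gave 96 down-regulated and 68 up-regulated genes, all 33 and all 9 DEGs among them.

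**Figure D2:**
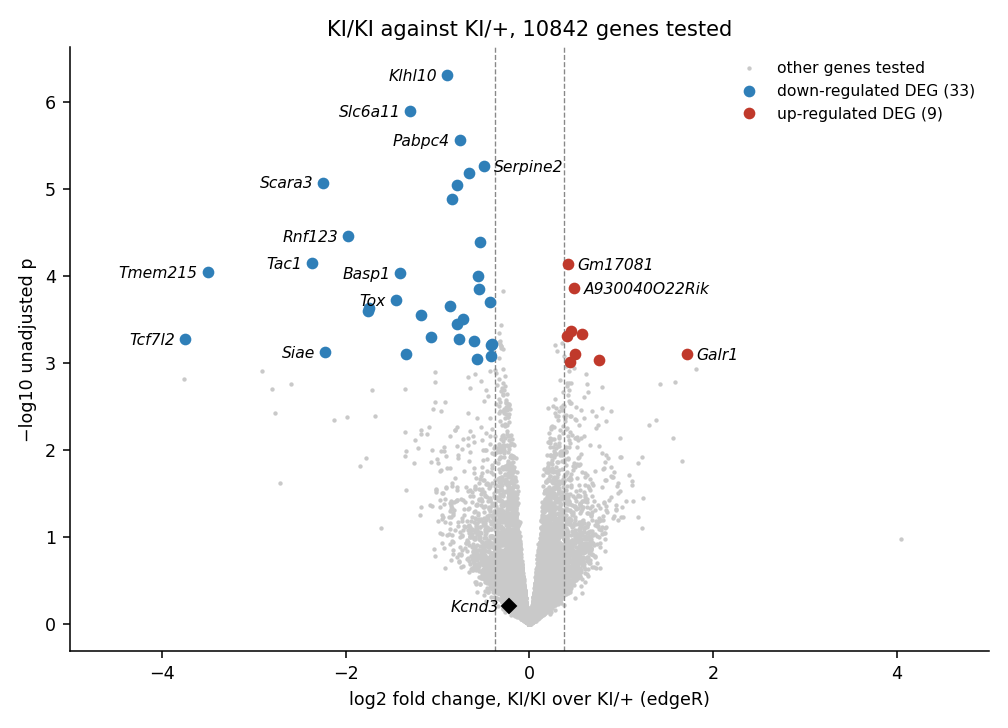
Log2 fold change of KI/KI over KI/+ (x axis) against −log10 of the unadjusted p from edgeR (y axis) for the 10842 genes tested; dashed lines mark a fold change of 1.3. Blue points are the 33 down-regulated DEGs, red points the 9 up-regulated DEGs, and the black diamond is *Kcnd3*, at a log2 fold change of -0.22.

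The 8 genes with the smallest p were down-regulated in KI/KI and were called under every alternative that gave them a value: *Klhl10*, *Slc6a11*, *Pabpc4*, *Serpine2*, *Klhl11*, *Scara3*, *Nlrp1a* and *Cant1*. In each of them the highest KI/KI library was below the lowest KI/+ library.

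A pair of them are neighbours on the chromosome and encode relatives. *Klhl10* and *Klhl11* encode BTB-Kelch proteins, which bring substrates to Cullin-3 ubiquitin ligases, and *Klhl10* is best known from male germ cells. *Klhl10* measured 78.7, 77.6 and 65.3 CPM in KI/+ and 41.0, 42.1 and 35.5 CPM in KI/KI, a log2 fold change of -0.90 ± 0.12 (SE, adjusted p = 0.00526). *Klhl11* measured 108, 114 and 90.0 CPM in KI/+ and 67.7, 72.1 and 58.6 CPM in KI/KI (log2 fold change -0.66 ± 0.10, adjusted p = 0.0139). Both genes were lower in all KI/KI libraries, and no other tested gene lies between them. They lie on opposite strands, and each had 6 counted neighbours.

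*Slc6a11* encodes GAT-3, the GABA transporter of astrocytes, which clears GABA away from synapses. It measured 44.2, 41.4 and 31.1 CPM in KI/+ and 18, 16.3 and 13.2 CPM in KI/KI, a 2.45-fold lower level (log2 fold change -1.30 ± 0.18, adjusted p = 0.00688). The WT libraries lay at 36.3, 51.1 and 51.4 CPM, above all KI/KI libraries and around the KI/+ libraries. It had 5 counted neighbours.

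*Pabpc4*, a cytoplasmic poly(A)-binding protein that protects messenger RNA tails, measured 123, 124 and 110 CPM in KI/+ and 64.1, 79.3 and 67.7 CPM in KI/KI (log2 fold change -0.76 ± 0.11, adjusted p = 0.00981). *Cant1*, a calcium-activated nucleotidase of the ER and Golgi needed for proteoglycan synthesis, measured 162, 168 and 129 CPM in KI/+ and 85.9, 103 and 65.8 CPM in KI/KI (log2 fold change -0.84 ± 0.14, adjusted p = 0.0176). Both had separate ranges in the 2 genotypes, with 1 counted neighbour for *Pabpc4* and 6 for *Cant1*.

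*Serpine2* encodes protease nexin-1, a secreted protease inhibitor that promotes neurite outgrowth. Its level was 333, 282 and 295 CPM in KI/+ and 230, 208 and 207 CPM in KI/KI, the smallest change of the 8 (log2 fold change -0.50 ± 0.08, adjusted p = 0.0139). *Nlrp1a*, an inflammasome sensor of innate immunity, measured 132, 135 and 92.7 CPM in KI/+ and 71.0, 74.2 and 65.4 CPM in KI/KI (log2 fold change -0.78 ± 0.13, adjusted p = 0.0139). *Serpine2* had 4 counted neighbours and *Nlrp1a* 6.

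*Scara3*, a class A scavenger receptor family member linked to oxidative stress, had the largest change of the 8 and the lowest counts. It measured 14.2, 15.5 and 25.3 CPM in KI/+ and 2.05, 4.84 and 4.54 CPM in KI/KI, a 4.72-fold lower level (log2 fold change -2.24 ± 0.36, adjusted p = 0.0139). Its WT libraries were at 13.9, 5.40 and 7.34 CPM, between the 2 mutant genotypes. Here KI/+ replicate 3 was the highest of all 9 libraries.

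**Figure D3:**
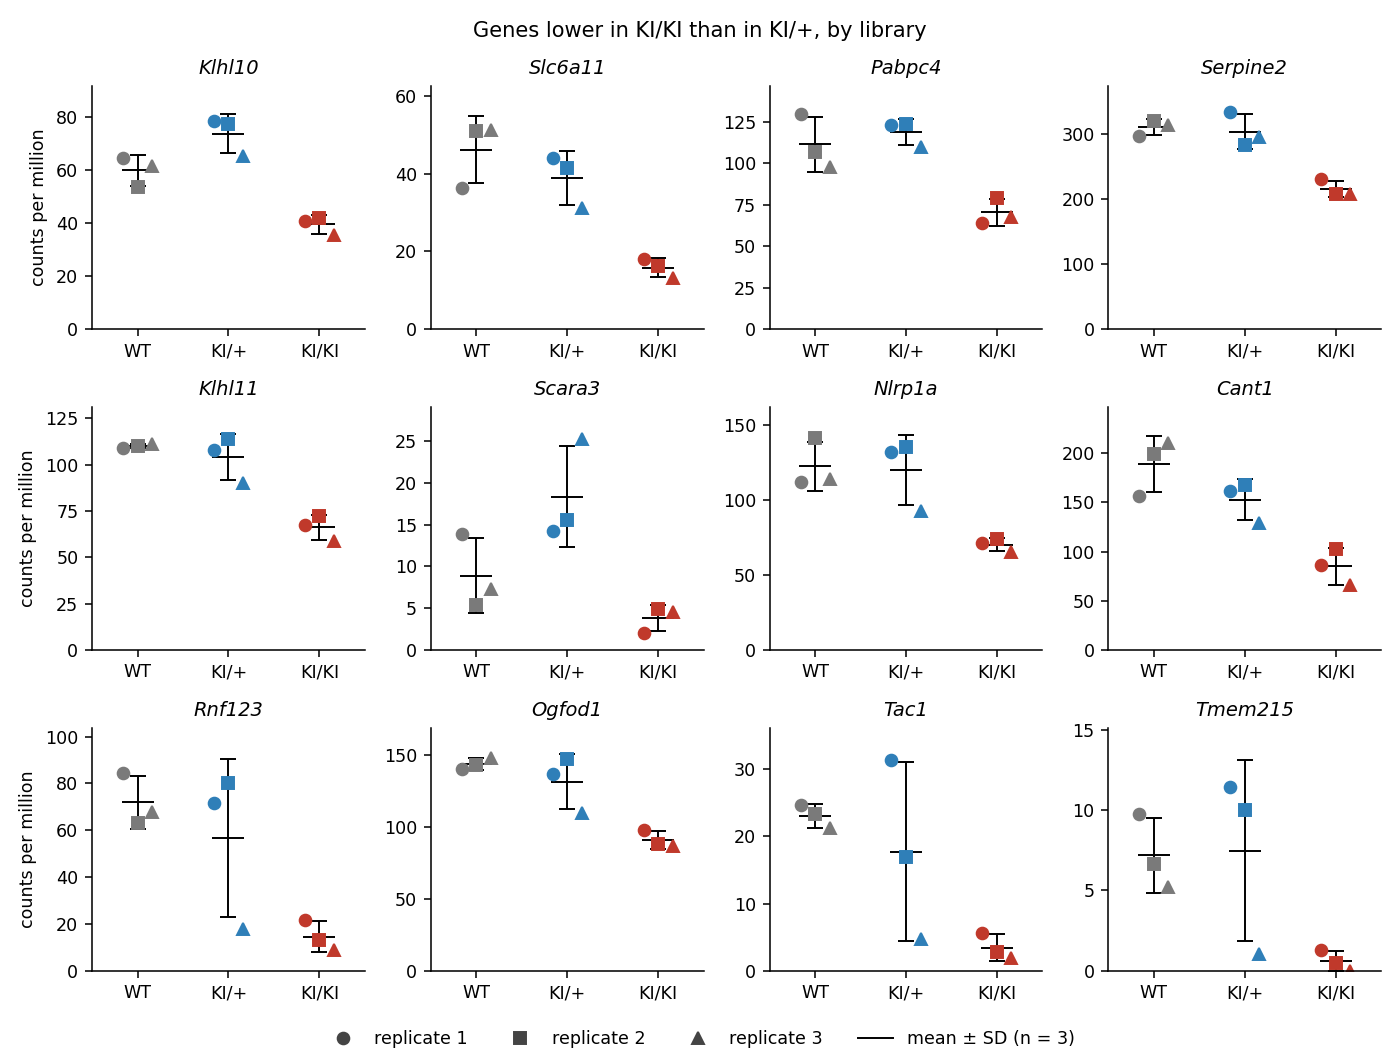
CPM in every library (y axis, from 0) of the 12 down-regulated DEGs with a gene symbol and the smallest p, by genotype (x axis); marker shape gives the replicate, and the bars are the mean ± SD of 3 libraries. *Klhl10* to *Cant1* and *Ogfod1* have separate KI/+ and KI/KI ranges, while KI/+ replicate 3 sits with KI/KI for *Rnf123*, *Tac1* and *Tmem215*.

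KI/+ replicate 3 lay close to KI/KI in a part of the other down-regulated DEGs. For each down-regulated DEG, its place between the KI/KI mean (0%) and the mean of KI/+ replicates 1 and 2 (100%) was taken on the log2 scale. In 9 of the 33 genes KI/+ replicate 3 lay between -9.5% and 25%, that is, close to KI/KI. In the other 24 genes it lay between 42.9% and 150.3%. The 9 genes were *Fam169a*, *Basp1*, *Tcf7l2*, *Siae*, *1700015G11Rik*, *Rnf123*, *Tmem215*, *Tac1* and *Tox*. The split was noticed in the values, so it is a description. The 6 down-regulated DEGs whose groups overlapped all belong to these 9.

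*Rnf123*, a RING-type ubiquitin ligase, measured 71.5, 80.2 and 17.9 CPM in KI/+ and 21.8, 13 and 8.70 CPM in KI/KI. Its log2 fold change was -1.97 ± 0.36 (adjusted p = 0.0421) with all libraries and -2.34 ± 0.21 (adjusted p = 3.16e-05) without KI/+ replicate 3. The SE was smaller without that library although fewer samples remained. The 9 genes were grouped by that library lying close to KI/KI. The grouping thus favours a larger change and a smaller SE and p without it, here and in the genes below. None of the 10 neighbouring family genes averaged 10 counts.

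*Basp1*, a membrane protein of growth cones and axon terminals, was the clearest case. It measured 283, 247 and 74.8 CPM in KI/+ against 87.7, 77.5 and 66.9 CPM in KI/KI, and 246, 278 and 308 CPM in WT. KI/+ replicate 3 was thus the only library outside KI/KI with a level under 100 CPM. The log2 fold change was -1.40 ± 0.28 (adjusted p = 0.0712) with all libraries and -1.78 ± 0.11 (adjusted p = 1.89e-07) without that library.

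*Tac1* encodes the precursor of substance P and neurokinin A and had 8 counted neighbours, the most of any gene. Its level was 31.4, 17.0 and 4.74 CPM in KI/+ and 5.64, 2.8 and 1.89 CPM in KI/KI (log2 fold change -2.37 ± 0.46, adjusted p = 0.0664). Without KI/+ replicate 3 it was -2.75 ± 0.33 (adjusted p = 4.97e-04). The WT libraries, at 21.2 to 24.7 CPM, were all above KI/KI.

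*Tmem215*, a transmembrane protein gene that also had 8 counted neighbours, measured 11.4, 9.98 and 1.05 CPM in KI/+ and 1.28, 0.510 and 0 CPM in KI/KI. Those KI/KI levels stand for 5, 2 and 0 counts. Its log2 fold change was -3.50 ± 0.69 (adjusted p = 0.0712), and -3.93 ± 0.52 (adjusted p = 0.00131) without KI/+ replicate 3. *Tox*, an HMG-box transcription factor of thymocytes and developing neurons, measured 17.3, 20 and 7.37 CPM in KI/+ and 5.13, 7.14 and 4.16 CPM in KI/KI (log2 fold change -1.45 ± 0.31, adjusted p = 0.108). It also had 8 counted neighbours, and its KI/+ replicate 3 lay just above the KI/KI range.

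These calls rested on few libraries. Without KI/+ replicate 2 the adjusted p was 0.281 for *Rnf123*, 0.369 for *Basp1*, 0.357 for *Tmem215* and 0.501 for *Tox*, all with the fold change still negative. Without KI/KI replicate 3 it was 0.315 for *Basp1*, 0.278 for *Tmem215*, 0.265 for *Tac1* and 0.431 for *Tox*. Without KI/+ replicate 1 it was 0.22 for both *Tac1* and *Tox*, and without KI/KI replicate 1 it was 0.24 for *Tox*.

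When KI/+ replicate 3 was left out, the refit over 11181 genes called 52 genes down (0.465%) and 6 up (0.0537%). Of the 33 down-regulated DEGs, 27 were called again, and of the 9 up-regulated DEGs, 3 were. Among the genes of the fit with all libraries, 21 further genes became down-regulated and 3 up-regulated. In 16 of those 21 genes KI/+ replicate 3 lay within or below the KI/KI range, which is what leaving it out selects for. *Foxp2*, a forkhead transcription factor of Purkinje cells with 8 counted neighbours, is 1 of them. It measured 124, 125 and 54.8 CPM in KI/+ and 54.9, 63.7 and 63.5 CPM in KI/KI, with a log2 fold change of -0.77 ± 0.27 (adjusted p = 0.377) that became -1.05 ± 0.24 (adjusted p = 0.102). The WT libraries were at 124, 55.3 and 50.5 CPM, so WT replicates 2 and 3 lay within or below the KI/KI range. *Foxp2* was chosen for the text after its values were seen, as were *Siae*, *Tcf7l2* and *Fam169a*.

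**Figure D4:**
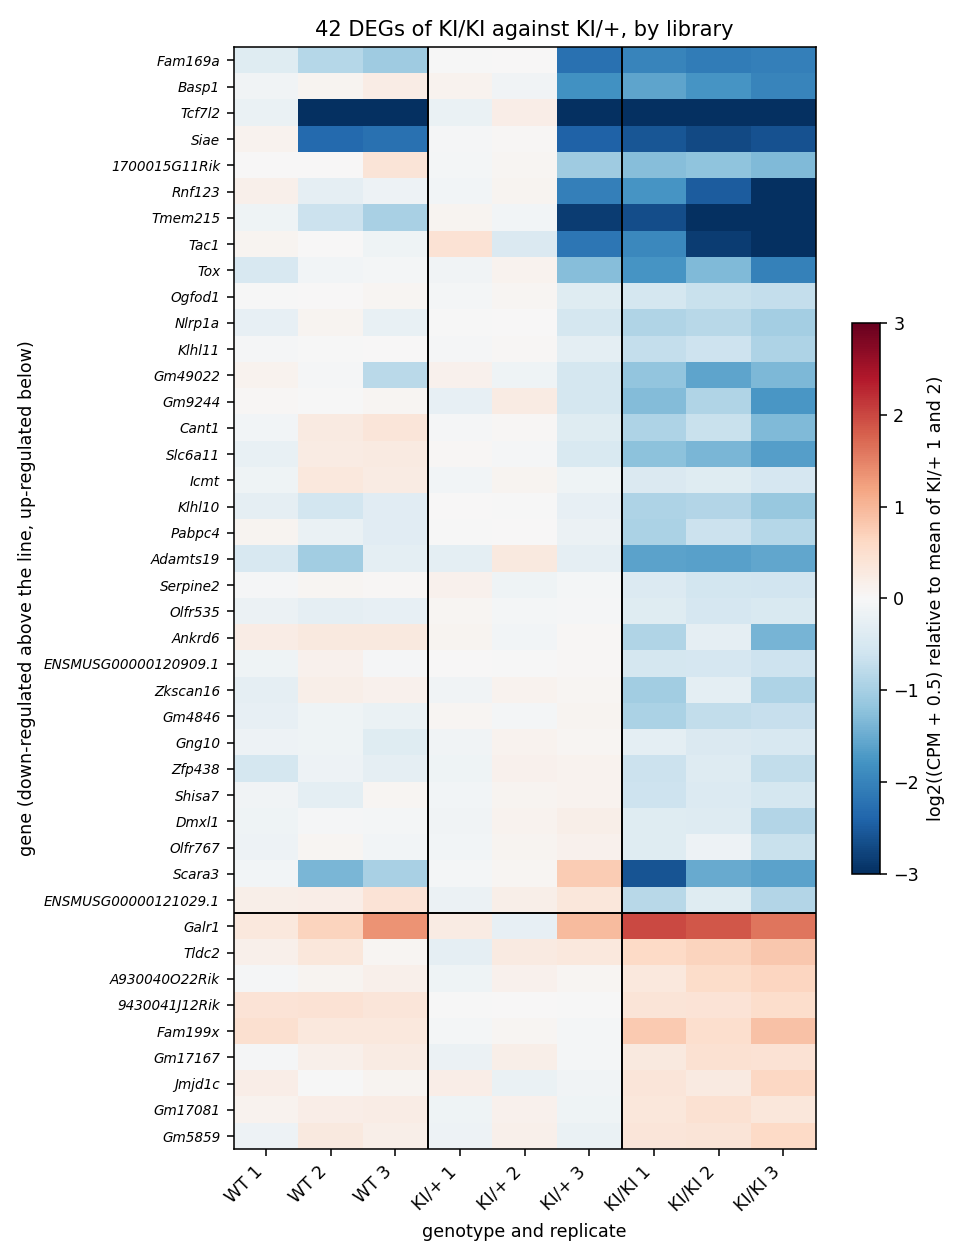
Level of the 42 DEGs in each library, as log2 of CPM + 0.5 minus the mean of KI/+ replicates 1 and 2 (colour scale, blue lower and red higher, limited to ±3); columns are libraries by genotype and replicate, and down-regulated genes are ordered by where KI/+ replicate 3 lies. In the top 9 rows KI/+ replicate 3 has the colour of KI/KI, and in *Tcf7l2* and *Siae* WT replicates 2 and 3 are also blue.

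Other down-regulated DEGs named by their small p were less marked. *Ogfod1*, an oxygenase that hydroxylates a protein of the small ribosomal subunit, measured 137, 147 and 110 CPM in KI/+ and 97.7, 88.5 and 86.6 CPM in KI/KI (log2 fold change -0.54 ± 0.10, adjusted p = 0.0439). *Shisa7*, an auxiliary protein of GABA-A and AMPA receptors, measured 62.8, 70.2 and 71.1 CPM in KI/+ and 43.1, 49.7 and 45.8 CPM in KI/KI (log2 fold change -0.55 ± 0.11, adjusted p = 0.0894). Both genes had separate ranges and 6 counted neighbours. *Olfr535*, named as an olfactory receptor gene, fell by 0.43 ± 0.09 on the log2 scale (adjusted p = 0.108), with 3 counted neighbours. The predicted gene *Gm4846* fell by 0.86 ± 0.19 (adjusted p = 0.115). An identifier without a symbol in the reference, ENSMUSG00000120909.1, fell by 0.56 ± 0.11 (adjusted p = 0.0719). Each of these 5 lost its call under some alternatives. Without KI/+ replicate 2 the adjusted p was 0.304 for *Ogfod1*, 0.375 for *Shisa7*, 0.264 for *Olfr535* and *Gm4846*, and 0.258 for ENSMUSG00000120909.1. Without KI/KI replicate 3 it was 0.237, 0.334, 0.456, 0.315 and 0.334 in the same order. *Shisa7* also lost its call without KI/KI replicate 1 (0.237), *Olfr535* without KI/+ replicate 1 (0.22) or KI/KI replicate 2 (0.215), and *Gm4846* without KI/+ replicate 1 (0.22) or KI/KI replicate 1 (0.252). The other 15 down-regulated DEGs had adjusted p-values of 0.116 to 0.178.

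The 9 up-regulated genes changed less, and none reached an FDR under 0.05. *Gm17081*, *Gm17167* and *Gm5859* are annotated within a short stretch on the same strand, the first and last as unprocessed pseudogenes, so they may share reads and are counted here with that doubt. *Gm17081* measured 174, 206 and 173 CPM in KI/+ and 238, 262 and 239 CPM in KI/KI (log2 fold change 0.42 ± 0.08, adjusted p = 0.0664). *Gm17167* rose by 0.41 ± 0.10 (adjusted p = 0.158) and *Gm5859* by 0.50 ± 0.12 (adjusted p = 0.169) on the log2 scale. All of them had 8 counted neighbours.

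*Galr1*, a galanin receptor that couples to inhibitory G proteins, had the largest rise, from low counts. It measured 1.73, 1.11 and 3.16 CPM in KI/+ and 6.92, 6.37 and 5.29 CPM in KI/KI (log2 fold change 1.71 ± 0.42, adjusted p = 0.169). *Jmjd1c*, a JmjC-domain chromatin protein, measured 221, 168 and 178 CPM in KI/+ and 248, 234 and 296 CPM in KI/KI (log2 fold change 0.45 ± 0.10, adjusted p = 0.158). *Tldc2*, a TLD-domain protein gene, rose by 0.58 ± 0.13 on the log2 scale (adjusted p = 0.158). *A930040O22Rik* rose by 0.48 ± 0.10 (adjusted p = 0.0894), *Fam199x* by 0.76 ± 0.19 (adjusted p = 0.18) and *9430041J12Rik* by 0.45 ± 0.11 (adjusted p = 0.185). Only *A930040O22Rik*, *Tldc2* and *Galr1* were called again without KI/+ replicate 3. Each of the 9 lost its call under at least 3 alternatives.

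Where the KI/+ mean lay relative to WT differed among these genes. In 16 of the 33 down-regulated DEGs the KI/+ mean was between the WT and KI/KI means, and in 17 it was above the WT mean. All 33 also had fitted levels in KI/KI under those of WT. In all 9 up-regulated DEGs the KI/+ mean was below the WT mean. *9430041J12Rik* shows this order most plainly, with 46.1, 46.6 and 44.5 CPM in WT, 33.8, 34.8 and 34.2 CPM in KI/+, and 45.1, 45.6 and 49.9 CPM in KI/KI. The KI/+ libraries took part in choosing these genes, and the comparisons share libraries, so these positions are descriptions.

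A contrast of the second step (KI/+ to KI/KI) with the first (WT to KI/+) tested whether the 2 alleles added equal changes on the log2 scale. At an FDR under 0.2 it called 2 genes, 0.0184% of those tested, both lower in the second step. *Klhl10* had a first step of 0.31 and a second step of -0.90, a difference of -1.21 (adjusted p = 0.119). *Scara3* had a first step of 0.98 and a second step of -2.24, a difference of -3.22 (adjusted p = 0.172). For both, KI/+ was the highest genotype. Without KI/+ replicate 3 the contrast called 10 genes lower and none higher by edgeR.

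The gene lists were read against the same test, which called 0.304% of all genes tested down and 0.083% up. At those shares a list of this length would often hold no DEG, so a list without one says little. The Kv4 complex list (*Kcnd3*, its relatives and its KChIP and DPP-like subunits) had 8 of 9 members tested. No member was called and the median log2 fold change was -0.08, against 0.00 over all genes tested. *Kcnd2*, which encodes Kv4.2 and had 8 counted neighbours, measured 1615 ± 308 CPM in KI/+ and 1826 ± 317 CPM in KI/KI (SD, n = 3 each; adjusted p = 0.728). Of 15 tested genes among 30 other potassium channels none was called, and the median was -0.05. *Kcnj10*, the inward rectifier Kir4.1 of glia, was at 2960 ± 75.6 CPM in KI/+ and 2751 ± 77.2 CPM in KI/KI (SD; adjusted p = 0.581). The summed level of that list, most of it *Kcnj10*, was 4410 to 4620 CPM in KI/+ and 4110 to 4350 CPM in KI/KI, without overlap.

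No tested gene of the secretory pathway lists was called, which says little given the small share of all genes that was called. The list of ER-to-Golgi transport and Golgi structure had 22 of 38 members tested, a median of 0.05 and no DEG, with 16 members higher and 6 lower in KI/KI by their fitted level. *Golgb1*, which encodes the Golgi protein giantin, measured 19.3, 41.0 and 3.16 CPM in KI/+ and 84.6, 46.1 and 32.9 CPM in KI/KI (adjusted p = 0.31). *Sar1a*, a GTPase of COPII coat assembly, had a mean of 15.3 CPM in KI/+ and 9.72 CPM in KI/KI (adjusted p = 0.419). The groups overlapped in both genes, and both were named outside the rule for naming list members. The summed level of the list was 3000 to 3160 CPM in KI/+ and 2890 to 2970 CPM in KI/KI, without overlap, and its most abundant member was *Cope*. *Cope*, a subunit of the COPI coat, measured 1686 ± 34.5 CPM in KI/+ and 1504 ± 15.4 CPM in KI/KI (SD; log2 fold change -0.16 ± 0.06, adjusted p = 0.363). WT libraries summed to 3060 to 3090 CPM over the list. The unfolded protein response list had 11 of 27 tested, a median of 0.02 and no DEG. Within it *Canx*, the ER chaperone calnexin, measured 322.9 ± 4.22 CPM in KI/+ and 271.9 ± 12.1 CPM in KI/KI (SD; log2 fold change -0.25 ± 0.07, adjusted p = 0.244), and *Ppp1r15a*, which reverses the stress block on translation, measured 1402 ± 156 and 1504 ± 40.5 CPM (adjusted p = 0.737). *Canx* and *Cope* were lower in all KI/KI libraries, as were 7.28% of all genes tested, and did not pass the test.

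Calcium signalling of Purkinje cells was close between the genotypes. In 14 of 20 tested members the median log2 fold change was -0.02 and none was called. *Car8* measured 9424 ± 454 CPM in KI/+ and 9738 ± 757 CPM in KI/KI (SD; log2 fold change 0.05, adjusted p = 0.893). *Calb1* measured 6174 ± 302 and 6193 ± 486 CPM (adjusted p = 0.994), and *Itpr1* 2886 ± 569 and 2801 ± 77.2 CPM (adjusted p = 0.932). The 4 tested Purkinje cell markers had a median of 0.03. In bulk tissue fewer Purkinje cells and less RNA per cell cannot be told apart. Of 32 genes of other spinocerebellar ataxias, 16 were tested with a median of 0.01, none called.

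Some lists hold genes that the study had already named from these libraries, so their counts are not independent evidence. Over all genes tested, 0.304% were down-regulated DEGs. The neuronal growth list had 9 of 20 members tested, a median of -0.17, and 3 down-regulated members, *Serpine2*, *Basp1* and *Tox*. Its summed level was 608 to 842 CPM in KI/+ and 496 to 541 CPM in KI/KI, without overlap. That sum includes the 3 DEGs. *Serpine2* had means of 303.4 CPM in KI/+ and 215.0 CPM in KI/KI, and *Basp1* 201.9 and 77.38 CPM. The lack of overlap therefore does not describe the other members. The Kelch and Cullin-3 list had 20 of 41 tested, a median of 0.01, and only *Klhl10* and *Klhl11* called. Its summed level was 953 to 970 CPM in KI/+ and 834 to 921 CPM in KI/KI, also without overlap. That sum includes *Klhl10* and *Klhl11*, so it does not describe the other members. By their fitted level 11 of the 20 tested members were higher in KI/KI and 9 lower. *Keap1*, the Kelch protein that holds back the oxidative stress factor NRF2, measured 113.1 ± 6.09 CPM in KI/+ and 90.0 ± 5.77 CPM in KI/KI (SD; adjusted p = 0.225). The translation list had 14 of 30 tested, a median of -0.04, and *Pabpc4* and *Ogfod1* called, while *Pabpc1*, the main cytoplasmic poly(A)-binding protein, was at 594.1 ± 19.0 and 601.1 ± 45.2 CPM (SD; adjusted p = 0.975). The GABA list had 9 of 24 tested and a median of -0.01, with *Slc6a11* called. Its *Gabrb2*, a GABA-A receptor subunit, was at 222.1 ± 47.0 CPM in KI/+ and 285.0 ± 26.0 CPM in KI/KI (SD; adjusted p = 0.369). The synaptic vesicle list had 18 of 36 tested, a median of 0.02 and no DEG. *Vamp1*, a vesicle SNARE, was at 1963 ± 90.9 and 1680 ± 88.6 CPM (SD; adjusted p = 0.505).

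Markers of other cells were measured to show what moved beside these changes. The inflammation and reactive glia list had 11 of 19 tested, a median of -0.09 and *Nlrp1a* called. The astrocyte and Bergmann glia list had 6 of 15 tested, a median of -0.20 and *Slc6a11* called, while *Gdf10*, *Hopx* and *S100b* were at 0 in every library. By their fitted level 5 of the 6 tested members were lower in KI/KI, among them *Aldh1l1* (log2 fold change -0.49, adjusted p = 0.716), *Acsbg1* (-0.36, adjusted p = 0.719) and *Aldoc* (-0.04, adjusted p = 0.96). *Gfap*, the intermediate filament of astrocytes, was at 809.8 ± 66.2 CPM in KI/+ and 904.7 ± 43.7 CPM in KI/KI (SD; adjusted p = 0.579), and *Slc1a3*, the glutamate transporter of Bergmann glia, was at 115.9 ± 10 and 114.5 ± 3.82 CPM (SD; adjusted p = 0.989). The summed level of the list, most of it *Gfap*, was 1000 to 1100 CPM in KI/+ and 1090 to 1180 CPM in KI/KI. The part of astrocyte content in the *Slc6a11* change was not tested.

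The list of deep nuclei and brainstem neuron markers, which holds *Tac1*, had 11 of 14 tested and a median of 0.02, with *Nefl* at 0 in every library and *Slc17a6* and *Nefm* at 1 count each. Its summed level was 2840 to 3080 CPM in KI/+ and 2570 to 2740 CPM in KI/KI, without overlap, and KI/+ replicate 3 had the lowest KI/+ value. Its most abundant member, *Vamp1*, was at 1963 CPM in KI/+ and 1680 CPM in KI/KI on average (adjusted p = 0.505), and 6 of the 11 tested members had a higher fitted level in KI/KI. WT libraries summed to 3020 to 3890 CPM. Whether tissue beside the Purkinje layer took part in the *Tac1* change was not tested. Choroid plexus and ependyma markers had 4 of 10 tested, all with a lower fitted level in KI/KI (median -0.79) and none called, while *Ttr*, the defining marker, had 1 count in all. Their sum was 107 to 121 CPM in KI/+ and 30.6 to 118 CPM in KI/KI, where replicate 3 was lowest. *Prlr*, the prolactin receptor, was at 73.9 ± 7.49 CPM in KI/+ and 41.7 ± 41.7 CPM in KI/KI (SD; adjusted p = 0.636).

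The remaining marker lists had no DEG. Granule cell markers had 5 of 10 tested and a median of 0.01, interneuron markers 6 of 10 and 0.05, and immediate early genes 6 of 14 and 0.02. Oligodendrocyte markers had 6 of 12 tested and a median of 0.08. In that list *Olig2*, a transcription factor of the oligodendrocyte lineage, was at 184.1 ± 8.96 CPM in KI/+ and 235.5 ± 21.8 CPM in KI/KI (SD; log2 fold change 0.35 ± 0.08, adjusted p = 0.158), under the fold limit. Vessel and blood markers had 3 of 12 tested (median 0.00) and microglia markers 2 of 12 (median -0.29). In all but the Kv4 list fewer than 80% of the members were tested, so these lists describe the members counted, not the cell type or pathway.

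**Figure D5:**
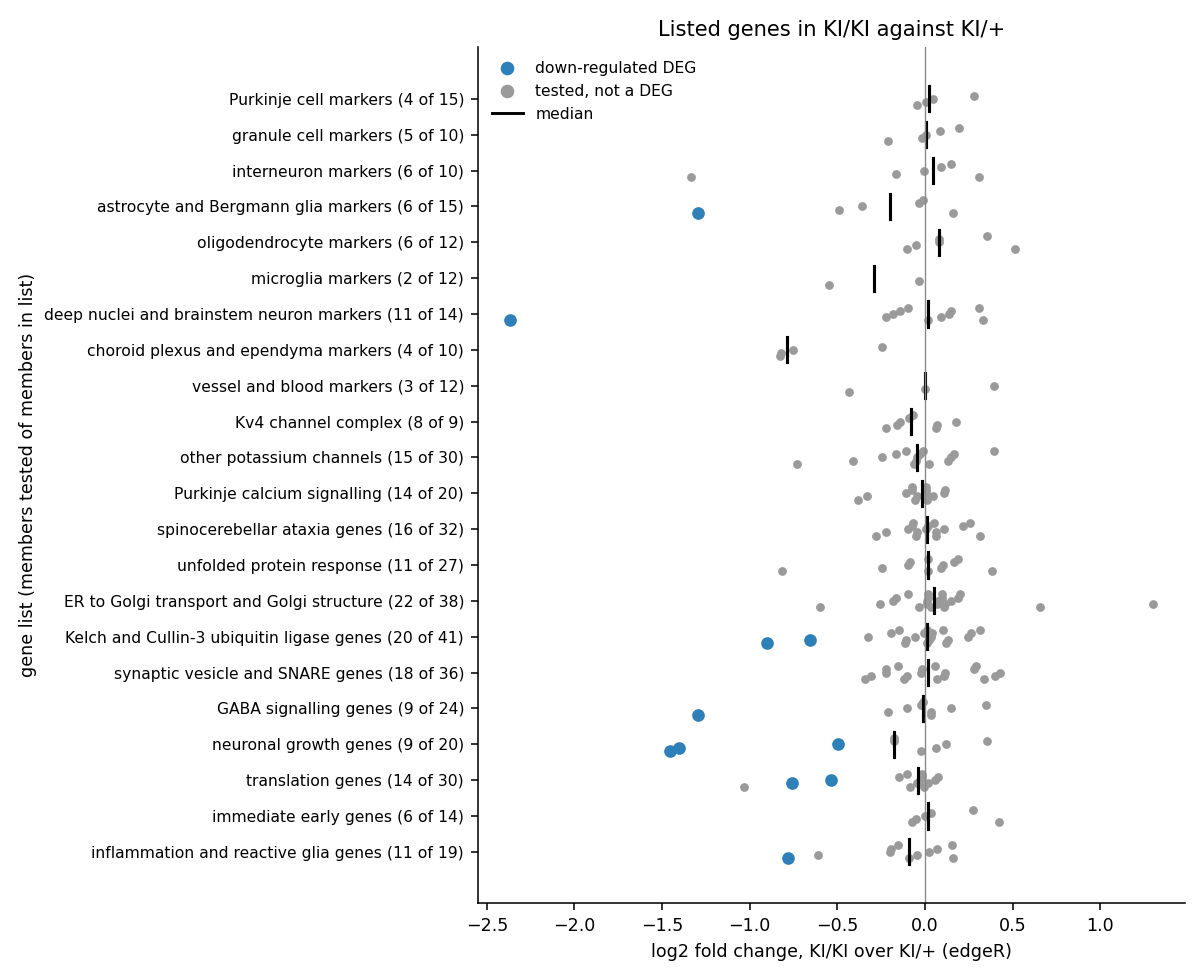
Log2 fold change of KI/KI over KI/+ (x axis) for each tested member of 22 gene lists (y axis, with members tested of members in the list); blue points are down-regulated DEGs, grey points other tested genes, and black ticks the medians. The medians of the secretory pathway, Purkinje calcium and synaptic vesicle lists lie between -0.02 and 0.05, and the blue points lie apart from the rest of their lists.

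The count of DEGs depended on the replicate 1 libraries and on single libraries. With replicates 2 and 3 alone, an alternative added after the data were seen, the test called 56 genes down and 37 up, with 26 of the 33 and 4 of the 9 DEGs among them. With replicates 1 and 2 alone it called 31 down and 1 up, sharing 18 of the 33 and none of the 9. All of *Klhl10*, *Slc6a11*, *Pabpc4*, *Serpine2*, *Klhl11*, *Scara3*, *Nlrp1a* and *Cant1* were called in both. Of the 33 down-regulated DEGs, 7 had 7 or more counted neighbours, as had 3 of the 9 up-regulated ones and 8.70% of all genes tested.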

How the data were processed

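RNA sequencing measured gene levels in 9 libraries (3 WT, 3 KI/+, 3 KI/KI). The authors aligned reads and counted them per gene with Rsubread, and deposited raw counts; the annotation release and strand setting are not given in the sources used here. Symbols came from GENCODE vM21 by identifier without version.

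Counts were fitted in edgeR 4.0.16 (R 4.3.3; limma 3.58.1) by the quasi-likelihood test over all 9 libraries, after filterByExpr (minimum count 10) and TMM scaling. CPM values use the TMM-scaled totals. DEGs had a fold change over 1.3 and a Benjamini-Hochberg FDR under 0.2, the study's criteria; the study used DESeq2, here (version 1.42.0) an alternative. SE is |log2 fold change| divided by the square root of F. The fit was tested on simulated data. Precision covers counting error and spread between libraries only.

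The text names *Kcnd3*, the 18 down- and 12 up-regulated DEGs with the smallest p (all where fewer), DEGs in a list, list members with the highest CPM, and genes of the second-step contrast, with exceptions said. Among the exceptions are *Golgb1*, *Sar1a*, *Aldh1l1* and *Acsbg1*, list members outside the rule. The comparison and lists were chosen with earlier results of these data known. Alternatives covered tool, scaling, filter, libraries, thinning to 1915339 counts, block, thresholds and each library left out. All 9 columns of the table were used.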

Additional observations from a re-analysis of the deposited data

Results flagged for a closer look

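A pair of genes differed between the second allele step (KI/+ to KI/KI) and the first (WT to KI/+) by the contrast of both steps in edgeR. For *Klhl10* the second step minus the first was -1.208 on the log2 scale (adjusted p = 0.119). The gene measured 64.8, 53.6 and 61.7 CPM in WT, below KI/+ at 65.3 to 78.7 CPM and above KI/KI at 35.5 to 42.1 CPM. The contrast was called in 13 of 21 alternatives, with differences of -1.36 to -1.11 and adjusted p-values of 6.39e-05 to 0.745.

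For *Scara3* the difference was -3.223 on the log2 scale (adjusted p = 0.172), and it was called in 10 of 20 alternatives, with differences of -3.72 to -2.69 and adjusted p-values of 5.81e-08 to 0.809. Its highest library was KI/+ replicate 3, at 25.3 CPM. Groups of 3 libraries are too small for a test of single outlying samples.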

How the results depend on the processing

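The down-regulated count (33) was 18 with DESeq2 on all 9 libraries, 19 with DESeq2 on the 6 libraries, 93 with no count filter, 17 with edgeR on the 6 libraries alone, 56 with replicates 2 and 3 alone and 10 at an FDR under 0.05. The up-regulated count (9) was 18 with limma-voom and sample weights, 58 with no count filter, 2 on the 6 libraries alone, 23 with the robust option, 1 with replicates 1 and 2 alone, 16 after thinning, 37 with replicates 2 and 3 alone and 0 at an FDR under 0.05, where 463 genes were higher at an unadjusted p under 0.05. DESeq2 on all 9 libraries called 13 up-regulated genes; its independent filtering left 7778 genes without an adjusted p, *Klhl10*, *Slc6a11* and *Scara3* among them, and without that filtering (chosen after the data were seen) it called 26 down and 6 up, of which 22 and 6 are among the 33 and 9. The cause of these differences was not tested, except that the stricter FDR admits fewer genes by construction and that filtering left genes without a call.

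Leaving out 1 library gave 9 to 57 down-regulated and 1 to 19 up-regulated genes. Without WT replicate 1 there were 55 down and 19 up. Without KI/+ replicate 2 there were 9 down and 7 up, and without KI/KI replicate 3 there were 10 down and 1 up. Without KI/+ replicate 3 there were 52 down, and without KI/KI replicate 2 there were 57 down and 16 up. The up-regulated count was also 15 without KI/+ replicate 1, 17 without KI/KI replicate 1, and 3 without either of WT replicates 2 and 3.

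The count of genes lower in the second step than in the first (2) was 25 with no count filter, 1 with at least 10 counts in every library, 1 with a term for the 6 libraries whose names begin with L1, 6 with replicates 1 and 2 alone, and 0 after thinning or at an FDR under 0.05. Leaving out 1 library gave 0 to 10. The count of genes higher in the second step (0, with 269 at an unadjusted p under 0.05 in edgeR and 0 called by DESeq2) was 9 with no count filter and 3 with replicates 2 and 3 alone, and 0 to 2 with 1 library left out.

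Same-numbered KI/+ and KI/KI libraries deviated from their group means with correlations of 0.232, 0.107 and 0.005. The labels give no pairing of animals, and the main fit had no replicate block (a term for the replicate number). It thus took no account of what the replicate 1 libraries shared across genotypes. With the replicate block, 96 genes were down-regulated and 68 up-regulated, among them all 33 and all 9 DEGs, and 5 genes were lower and 1 higher in the second step. Each KI/+ library correlated best with the KI/KI library of its own number for replicates 1 and 2 but not for replicate 3.

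Over 594 alternative values of the 27 named DEGs, 472 stayed past both thresholds, 122 did not and none changed direction. Of 506 alternative medians of the gene lists, 56 moved by more than the spread between libraries. With totals of 1915339 to 4032357 counts, genes such as *Tmem215* (0 to 5 counts in KI/KI libraries) have fold changes that depend on a few counts.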

Other observations

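A group of genes separated WT replicate 1 and KI/+ replicates 1 and 2 from the other 6 libraries. In 10 genes tested, the lowest of those 3 libraries was over 1.3 times the highest of the other 6, and in 6 genes the order was the opposite. The pattern was noticed in the values and was not tested. *Siae*, a sialic acid acetylesterase with 7 counted neighbours, measured 199 CPM in WT replicate 1, 180 and 189 CPM in KI/+ replicates 1 and 2, and 28.0 to 38.4 CPM in the other 6 libraries. *Tcf7l2*, a transcription factor of Wnt signalling, measured 23.6, 23.5 and 31.4 CPM in the 3 libraries and at most 2.65 CPM in the others. Of the 10 genes, 4 were down-regulated DEGs of KI/KI against KI/+, and 7 were called down without KI/+ replicate 3, *Foxp2* among these 7. In *Tcf7l2* WT replicates 2 and 3, at 1.25 and 2.59 CPM, lay within the KI/KI range of 0.765 to 2.65 CPM. In *Siae* they were at 36.2 and 38.4 CPM, above the KI/KI libraries at 28.0 to 30.8 CPM. *Stk38*, a kinase gene of the same pattern, was at 0 to 1.73 CPM in the 6 libraries, and it is the next tested gene to *Kctd20*, which was also called down without KI/+ replicate 3.

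Some called genes lay side by side. Besides *Klhl10* and *Klhl11*, *Basp1* follows *Gm2824*, a long noncoding RNA gene on the same strand with no other tested gene between them. *Gm2824* was at 6.91, 5.92 and 0 CPM in KI/+ and 0.513, 1.02 and 2.65 CPM in KI/KI, and it was called down without KI/+ replicate 3 only.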
